A study of Rattus norvegicus with 18 samples.

Results

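The response of rat primary hepatocytes to 100 µM EMD after 24 h was read from 6 Affymetrix arrays, chosen by the array titles out of 18 in the series. Of these, 3 titled as biological replicates carried RNA of cultures given 100 µM EMD. The other 3 carried RNA of cultures given the vehicle alone, 0.1% DMSO. EMD is described in the study as an agonist of both PPARα and PPARγ. All cultures of both groups were hepatocytes, the parenchymal cells of the liver, from Wistar rats with no allele or diet named, of an age and sex not given in the labels. The cells had been allowed to attach to the dish for 24 h before medium with gentamicin, insulin, hydrocortisone and either EMD or vehicle was put on, so insulin and a glucocorticoid were present in the controls too. The question was which genes this dose moved within 24 h, and 2 further sets of arrays were used for comparison, 3 arrays at 30 µM and 24 h and 6 arrays of 100 µM EMD and DMSO at 72 h.

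PPARα is a nuclear receptor that is activated by fatty acids and by drugs such as the fibrates. It pairs with an RXR receptor on DNA, and in the liver it is best known for turning on the genes that take up fatty acids, activate them and burn them in mitochondria and peroxisomes during fasting. In rats and mice its agonists also make peroxisomes multiply. PPARγ is best known from fat cells, where it turns on genes of fat storage.

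Every value below is a log2 expression estimate, so that a difference of 1 is a doubling, and a change is the mean of the 3 EMD arrays minus the mean of the 3 DMSO arrays ± the standard error (SE) of the fit. A gene is said to have risen or fallen where the adjusted p of limma's moderated test was under 0.05. The medians of the 6 arrays lay between 5.07 and 5.10, the median SE of a change was 0.116, and the number of arrays limits this precision. Array values under the median are near background, and RMA gives no detection call, so the size of a rise that starts there or of a fall that ends there is uncertain. That was so for 43 genes that rose and 49 that fell. Each gene was read through 1 probe set, and the change in its other probe sets is given for most of the named genes that have them.

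Of 31042 probe sets tested, 950 (3.06%) were higher with EMD and 917 (2.95%) lower. Read as genes, 556 of 14217 (3.91%) rose and 616 (4.33%) fell, so in number the falls were not fewer than the rises. In size they were. Among the genes that rose the median change was 0.78, and among those that fell it was -0.59, against -0.03 over all genes. A change of at least 2-fold was reached by 321 higher and 138 lower probe sets, one of at least 4-fold by 112 and 3, and one of at least 8-fold by 48 and 0. The EMD and DMSO arrays did not overlap in 1852 of the 1867 called probe sets, as they did not in 20.8% of all probe sets. The test took the arrays as unpaired. With the replicate number as a block, the total of 1867 became 2645 and the lower calls 1377. Without EMD replicate 2 the total became 1207. The lower calls alone numbered 611 without DMSO replicate 2, 544 without EMD replicate 2 and 578 without EMD replicate 3.

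**Figure D1:**
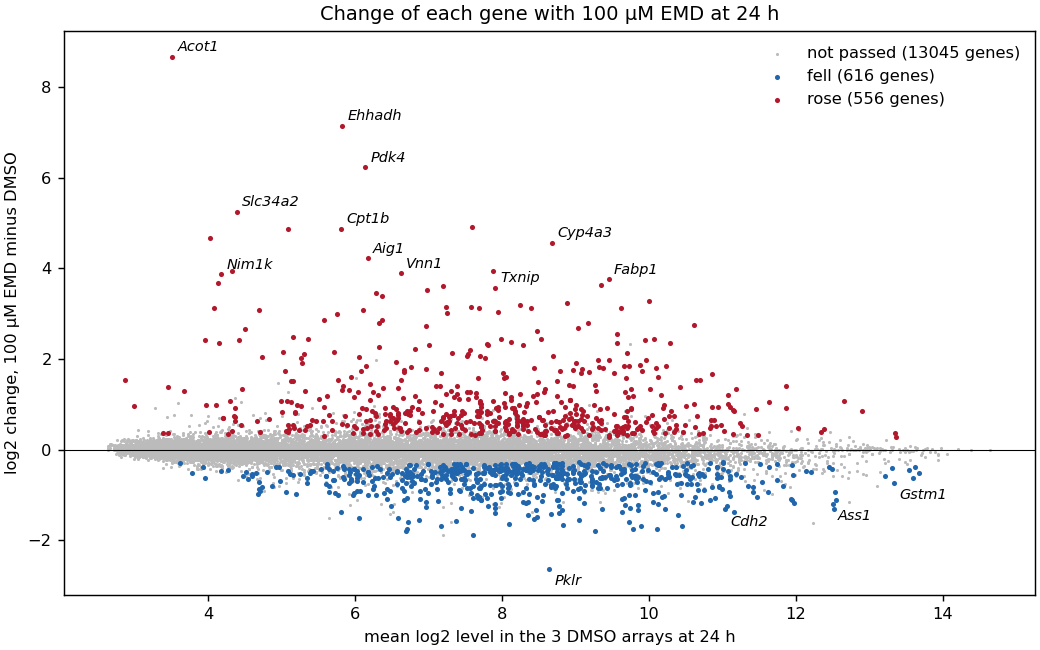
Change with 100 µM EMD at 24 h (y axis, log2) against the mean level of the gene in the 3 DMSO arrays (x axis, log2), 1 point per gene. The 556 genes that rose reach up to 8.67 and the 616 that fell reach down to -2.64, and rises of over 4 are found among genes of low and of intermediate level in DMSO.

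The largest rise was that of Acot1, a cytosolic thioesterase that splits acyl-CoA into fatty acid and coenzyme A. Acot1 was at 3.57, 3.45 and 3.51 in the DMSO arrays and at 12.05, 12.24 and 12.26 in the EMD arrays, a change of 8.67 ± 0.09 or 409-fold (adjusted p = 2.3e-19). Its DMSO arrays lay near background and close together, so the fold is uncertain. Ehhadh, which carries out the middle steps of β-oxidation in peroxisomes, stood at 6.45, 5.60 and 5.42 against 12.77, 13.01 and 13.13, a rise of 7.15 ± 0.26 or 142-fold. Pdk4, the kinase that switches off pyruvate dehydrogenase and so spares glucose, stood at 5.99, 5.97 and 6.42 against 12.25, 12.44 and 12.40, a rise of 6.24 ± 0.19 (other probe set 4.47). All 3 genes are among those chosen for their rise and for groups without overlap.

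Genes outside the lists of fatty acid metabolism described below stood among the 20 largest rises as well. Slc34a2, a phosphate transporter of epithelia, was at 4.61, 4.12 and 4.45 in DMSO and at 9.84, 9.63 and 9.45 in EMD, a rise of 5.25 ± 0.30. Serpine2, a secreted inhibitor of serine proteases, went from 3.64, 4.36 and 4.07 to 8.21, 9.02 and 8.86, a rise of 4.67 ± 0.23. Vnn1, the vanin that frees pantothenate, a building block of coenzyme A, went from 6.99, 6.84 and 6.02 to 10.41, 10.38 and 10.73, a rise of 3.89 ± 0.22. Slc34a2 and Serpine2 began under the array median and Vnn1 above it. Txnip, a thioredoxin-binding protein that restrains glucose uptake, was at 8.0, 7.79 and 7.94 in DMSO and at 11.40, 11.46 and 11.57 in EMD, a rise of 3.57 ± 0.16. Nim1k, a protein kinase, rose by 3.87 ± 0.24 from 4.50, 4.38 and 3.67 to 8.20, 7.90 and 8.06. Chrna2, a subunit of the nicotinic acetylcholine receptor best known from neurons, rose by 3.68 ± 0.31 from 3.97, 4.21 and 4.19 to 7.19, 8.24 and 7.99. Both Nim1k and Chrna2 began under the median. Aig1, which splits fatty acid esters of hydroxy fatty acids, rose by 4.23 ± 0.15 in the probe set read, but its other probe set differed by only 0.19, so the call for Aig1 rests on 1 of 2 probe sets.

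**Figure D2:**
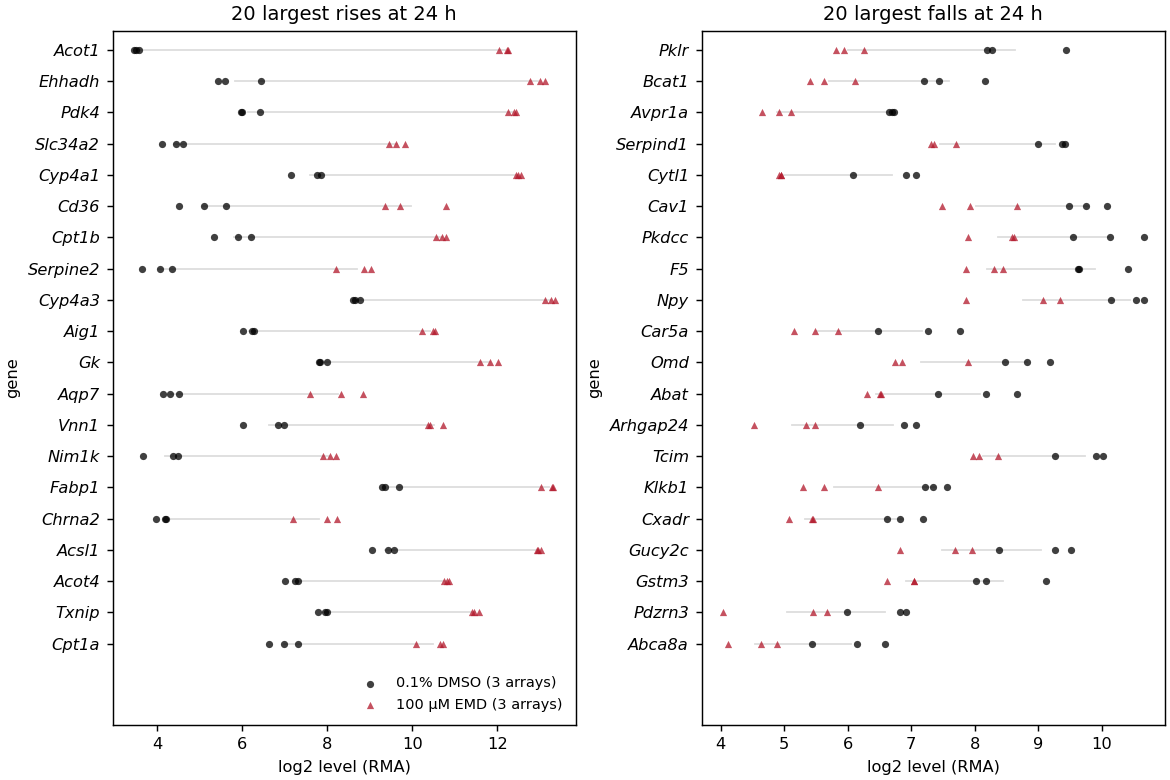
Level of the 20 genes with the largest rises (left) and the 20 with the largest falls (right) in each array, on the log2 scale of the x axis. Black circles are the 3 DMSO arrays, red triangles the 3 arrays with 100 µM EMD and the grey line joins the group means. Groups without overlap were a condition for being shown.

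To set some of these genes beside the letters of their promoters, the 250 bases before the RefSeq start (build GRCr8) were searched on both strands. A promoter was found for 11733 of the 14217 genes. The motif of PPAR with RXR was written as the half-site AGGNCA, repeated in the same direction with 1 base between, where N is any base. It stood in the window of 4 of 475 genes that rose (0.842%), of 2 of 506 that fell (0.395%) and of 36 of 10752 not called (0.335%), and in 0.368% of all 33469 promoters of the table. The 4 that rose were Fabp1, Gys2, Asgr1 and Dnajc19, and the 2 that fell were Prkar1b and Sardh. The windows of Fabp1, the liver fatty acid binding protein, and Gys2, the liver glycogen synthase, are shown because these genes had the largest rises of the 4 (3.76 ± 0.19 and 1.75 ± 0.17). Each runs 5′ to 3′ in the direction of the gene, and capitals mark the repeat, which in Fabp1 is read on the opposite strand. The Fabp1 window is chr4:104749223-104749315 on the plus strand, with the repeat 77 to 65 bases before the start, and that of Gys2 is chr4:177137264-177137356 on the minus strand, with the repeat 80 to 68 bases before it.
Fabp1: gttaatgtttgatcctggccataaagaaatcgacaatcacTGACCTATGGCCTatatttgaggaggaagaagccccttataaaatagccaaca
Gys2: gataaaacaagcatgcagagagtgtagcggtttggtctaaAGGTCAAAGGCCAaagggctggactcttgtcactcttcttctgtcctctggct

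The carbohydrate response motif, through which glucose turns on genes of glycolysis and lipogenesis, was written as CACGNG and CNCGTG with 5 bases between. It was found in 7 of all 33469 promoters (0.0209%), in 0 of 475 genes that rose, in 1 of 506 that fell (0.198%) and in 4 of 10752 not called (0.0372%). That gene was Pklr, the liver pyruvate kinase, which had the largest fall of all. With 1 match among the genes that fell, a link between this motif and a fall could not be tested. Its window, with the motif in capitals 168 to 152 bases before the start, is chr2:176841056-176841152 on the plus strand.
Pklr: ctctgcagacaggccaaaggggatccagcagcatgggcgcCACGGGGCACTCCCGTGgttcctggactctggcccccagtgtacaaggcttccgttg
The sterol motif TCACNCCAC was searched with the genes of cholesterol synthesis in mind. It stood in the window of 4 of 475 genes that rose (0.842%), 5 of 506 that fell (0.988%) and 116 of 10752 not called (1.08%). The 4 that rose were Ehhadh, Mtch2, Ppcs and Ucp2, none of them in the list of cholesterol synthesis. A match describes letters and does not show that a factor binds there.

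The mRNA of the PPAR receptors themselves did not pass the test. Ppara was at 6.27, 6.69 and 6.60 in DMSO and 6.46, 6.58 and 6.35 in EMD, a difference of -0.05 ± 0.20 (adjusted p = 0.95). Ppard differed by -0.22 ± 0.16 (adjusted p = 0.54) and Pparg by 0.33 ± 0.24 (adjusted p = 0.57). That these genes missed the threshold does not show that they stayed the same. Of 16 measured receptors and coregulators, 2 rose and 0 fell, where over all genes 3.91% rose and 4.33% fell. Rxrg, an RXR partner best known from muscle, rose by 1.28 ± 0.18, from 6.73, 6.19 and 5.80 to 7.71, 7.51 and 7.32, while its other probe set differed by 0.13. The other was Ncoa1, a coactivator (0.50 ± 0.11, other probe sets 0.01 and 0.36), whose call was lost in 3 alternatives, among them the one without EMD replicate 2.

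The study names 14 genes as its PPARα pathway, and 13 of them rose and 0 fell, with a median change of 3.19. The study reports fold changes of these genes from the same series and does not state how they were picked. The direction of the list is therefore not independent evidence. The exception was Fabp5, the epidermal fatty acid binding protein, at 11.55, 11.22 and 11.91 in DMSO and 11.94, 11.69 and 11.47 in EMD (0.14 ± 0.20, adjusted p = 0.82). Of those that rose, Hadha did so by 1.80 ± 0.09 (other probe sets 1.92 and -0.05) and the acyl-CoA oxidase Acox3 by 0.77 ± 0.15.

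Fatty acids enter the cell, are bound by carrier proteins and are activated to acyl-CoA, and 7 of 24 measured genes of these steps rose while 0 fell (median change 0.16). The scavenger receptor Cd36, which takes up fatty acids, went from 5.63, 5.09 and 4.51 to 9.35, 9.71 and 10.80, a rise of 4.88 ± 0.33. Fabp1 went from 9.30, 9.37 and 9.69 to 13.04, 13.32 and 13.28. The muscle form Fabp3 rose by 2.16 ± 0.31, from 4.89, 5.08 and 5.08 to 7.16, 7.37 and 6.99, and its DMSO mean of 5.02 lay under the array median. The genes that rose were thus a part of the list, and the 17 others lay between -0.36 and 0.42. Of the acyl-CoA synthetases, Acsl1 rose by 3.63 ± 0.11 (other probe sets 3.97 and 0.14) and Acsl3 by 3.39 ± 0.14. Thioesterases undo this activation, and 7 of 10 rose and 0 fell, with a median of 2.32. After Acot1 came Acot4 (3.62 ± 0.15) and Acot3 (3.08 ± 0.11), both peroxisomal. Acot7, best known from brain, rose by 2.37 ± 0.16 but its other probe set differed by 0.14, and the mitochondrial Acot2 rose by 2.35 ± 0.12 (other probe sets 1.84 and 3.55).

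Long-chain acyl groups pass into the mitochondrion as carnitine esters, and 7 of 12 measured genes of this shuttle rose and 0 fell (median 2.14). Cpt1b, the form of the outer membrane transferase known from muscle, went from 5.33, 5.91 and 6.20 to 10.57, 10.79 and 10.70, a rise of 4.88 ± 0.16. Cpt1a, the liver form, went from 6.64, 6.98 and 7.31 to 10.10, 10.65 and 10.73, a rise of 3.52 ± 0.21 (other probe set 2.84). The inner transferase Cpt2 rose by 1.98 ± 0.17 and the carnitine-acylcarnitine exchanger Slc25a20 by 2.30 ± 0.13. So each step from the outer to the inner membrane had a gene that rose. Upstream of them, the carnitine importer Slc22a5 rose by 2.86 ± 0.10, from 5.61, 5.61 and 5.53 to 8.32, 8.53 and 8.47. Crat and Crot, the carnitine acetyl- and octanoyltransferases, rose by 3.01 ± 0.13 and 3.03 ± 0.24, and Crot had other probe sets at 3.24 and 0.16. The 5 that did not pass included the neuronal form Cpt1c and the carnitine synthesis genes Bbox1, Tmlhe and Aldh9a1, and lay between -0.15 and 0.44.

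Of 18 genes of mitochondrial β-oxidation, 15 rose and 0 fell, the highest share of any list but that of the study's pathway, with a median of 1.31. Acadm, the medium-chain acyl-CoA dehydrogenase, went from 9.74, 9.71 and 9.27 to 11.97, 12.20 and 12.20, a rise of 2.55 ± 0.18. Acaa2, the thiolase that ends each round, rose by 2.75 ± 0.21 (other probe set 3.69), and Decr1, the reductase for unsaturated chains, rose by 2.35 ± 0.27. Eci1, an isomerase for unsaturated chains, rose by 3.28 ± 0.15, although its other probe set differed by -0.15. The members differed in size from the large rises of Eci1 and Acaa2 down to 0.31 for Etfa, a subunit of the flavoprotein that hands on the electrons. The 3 not called were Acad9, Acad10 and Echs1, between -0.16 and 0.37. Ketone bodies are made from the acetyl-CoA of this pathway. Of 7 listed genes of their synthesis and export 5 were measured, and 3 of these rose and 0 fell. The 2 that were not called lay below 0, between -0.62 and -0.10. Acat1, the mitochondrial acetoacetyl-CoA thiolase, rose by 2.79 ± 0.13 (other probe set 3.33), and the monocarboxylate transporters Slc16a1 and Slc16a6 by 0.71 ± 0.07 (other probe set -0.07) and 1.18 ± 0.29 (1.38). The call for Slc16a6 was lost in 3 alternatives.

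**Figure D3:**
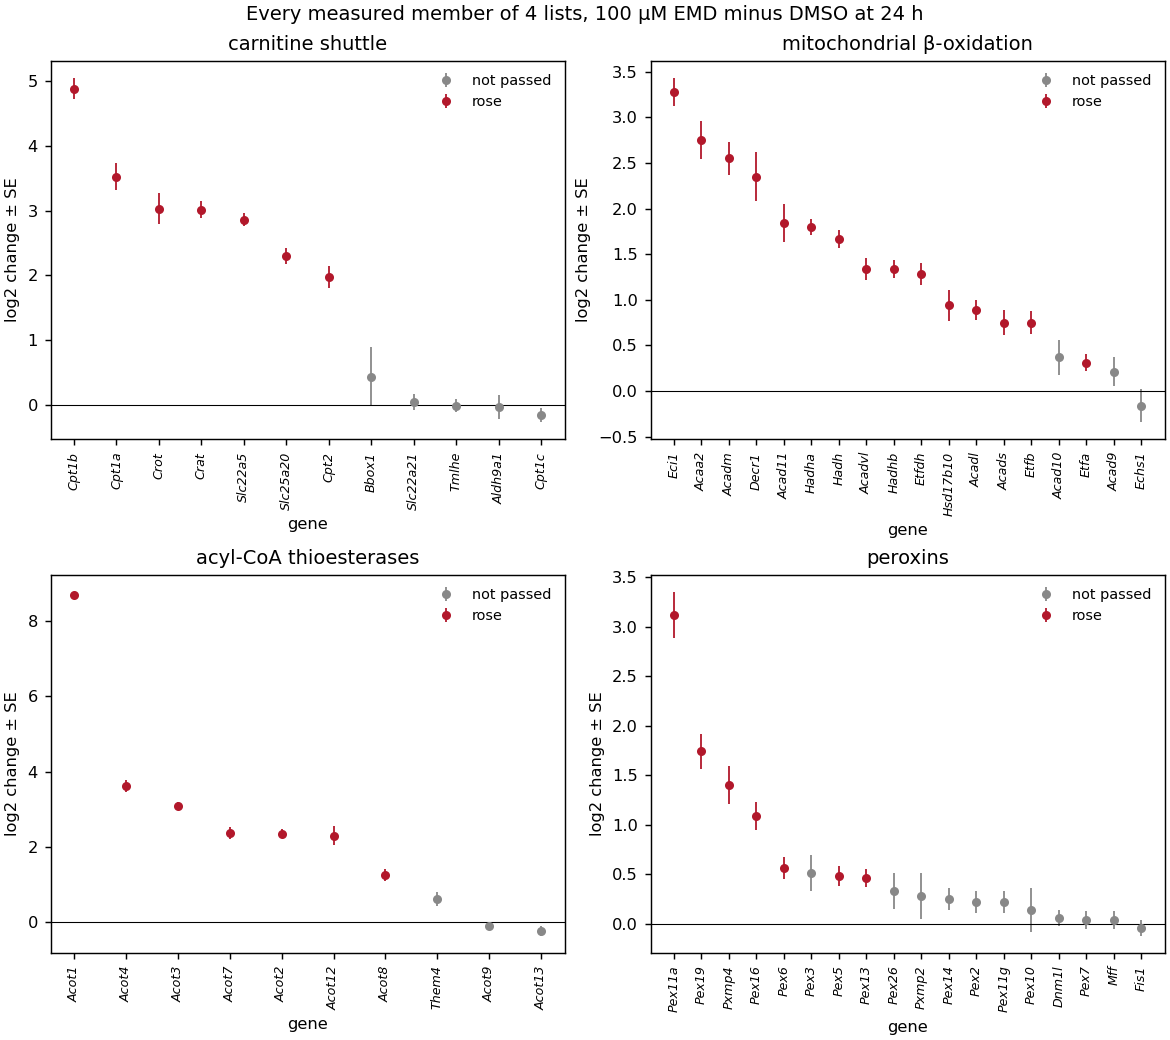
Every measured member of the carnitine shuttle, mitochondrial β-oxidation, acyl-CoA thioesterase and peroxin lists (x axis), with its log2 change as a point and the SE as a bar (y axis). Each group had 3 arrays. Red members rose and grey members did not pass the test, and no member of these 4 lists fell.

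In peroxisomes, which shorten very long and branched chains, 15 of 31 enzymes and transporters rose and 1 fell (median 0.48). Beside Ehhadh, the largest rises were those of Nudt7, a coenzyme A hydrolase (3.15 ± 0.10, from 7.62, 7.53 and 7.59 to 10.58, 10.92 and 10.71), Hacl1, which shortens branched chains by 1 carbon (3.14 ± 0.26), and the isomerase Ech1 (3.13 ± 0.17). Ephx2, the soluble epoxide hydrolase, rose by 2.62 ± 0.15. The gene that fell was Hao2, a hydroxy acid oxidase (-0.80 ± 0.22). Peroxins build and divide the organelle, and 7 of 18 rose and 0 fell (median 0.31). Pex11a, which drives division, went from 7.83, 8.57 and 8.78 to 11.35, 11.67 and 11.53, a rise of 3.12 ± 0.23 (other probe set 3.53). Pex19, the receptor for new membrane proteins, rose by 1.74 ± 0.18, the membrane protein Pxmp4 by 1.40 ± 0.19 (1.09) and Pex16 by 1.09 ± 0.14 (0.26). The 11 peroxins that did not pass are drawn in the plot of the fatty acid lists. Among 10 CYP4 hydroxylases, which start ω-oxidation, 2 rose and 2 fell. Cyp4a1 went from 7.85, 7.77 and 7.14 to 12.43, 12.50 and 12.55 (4.91 ± 0.23) and Cyp4a3 from 8.66, 8.76 and 8.60 to 13.12, 13.35 and 13.26 (4.57 ± 0.22). In the CYP4F family Cyp4f1 fell by 1.01 ± 0.18, from 10.55, 10.47 and 10.31 to 9.55, 9.30 and 9.44, and Cyp4f6 by 0.36 ± 0.10, a call lost in 7 alternatives. Acot, Cyp4a, Cyp4f and Gstm genes have close copies, and whether their probe sets share signal was not tested.

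Some genes of lipid droplets, lipolysis, glycerol and triglyceride synthesis rose as well. Of 20 genes of lipid droplets and lipolysis 11 rose and 0 fell (median 0.51). Angptl4, a secreted inhibitor of lipoprotein lipase, went from 8.85, 8.92 and 8.89 to 11.96, 12.20 and 12.19, a rise of 3.23 ± 0.13. Hilpda and G0s2, which both restrain the triglyceride lipase, rose by 3.13 ± 0.15 and 1.74 ± 0.19. The lipase itself, Pnpla2, rose by 2.43 ± 0.19, from 7.71, 8.03 and 8.21 to 10.08, 10.66 and 10.50, and the monoglyceride lipase Mgll by 2.68 ± 0.29 (other probe sets 2.77, 0.19 and 2.47). So the lipase and its restrainers rose together. Of 6 genes that handle glycerol, the other product of lipolysis, 4 rose and 0 fell (median 1.98). Glycerol kinase, Gk, went from 7.83, 7.99 and 7.81 to 11.60, 12.02 and 11.84 (3.95 ± 0.16, other probe set 1.09). The glycerol channel Aqp7 rose by 3.94 ± 0.30, from 4.31, 4.14 and 4.51 to 7.60, 8.85 and 8.33. The glycerol 3-phosphate dehydrogenases Gpd2 and Gpd1 rose by 2.42 ± 0.24 (2.67) and 1.54 ± 0.24 (1.78). Aqp7 and Gpd2 began under the array median, at DMSO means of 4.32 and 4.42. In triglyceride synthesis 6 of 14 rose and 1, Lpin3, fell (median 0.14), with Mttp, which loads lipid onto apolipoprotein B, at 1.57 ± 0.11, Agpat2 at 1.10 ± 0.11 and the final acyltransferases Dgat1 and Dgat2 at 1.05 ± 0.10 and 0.76 ± 0.11 (0.87). Of 14 genes known as PPARγ targets in fat cells 2 rose, Aqp7 and the droplet protein Cidea (1.20 ± 0.21), and the 12 others lay between -0.13 and 0.72.

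Among 21 genes of fatty acid synthesis, desaturation and elongation 6 rose and 2 fell (median 0.41). Elovl6, which lengthens palmitate, went from 6.13, 6.47 and 6.26 to 9.43, 9.88 and 9.89, a rise of 3.45 ± 0.18 (other probe set 2.97). Malic enzyme, Me1, a source of NADPH, rose by 1.90 ± 0.21 (1.77) and the desaturase Scd by 0.85 ± 0.17. Those that fell were Acaca, the carboxylase of the committed step (-0.65 ± 0.16), and Fads3 (-0.58 ± 0.16), and neither fell in the tests without EMD replicate 1, EMD replicate 2 or DMSO replicate 2. So the elongase and the carboxylase moved in opposite directions. Of 22 genes of cholesterol synthesis and its regulators 8 rose and 0 fell (median 0.48), among them Fdft1, squalene synthase (0.97 ± 0.18, other probe set 0.57), and Fdps, farnesyl diphosphate synthase (0.87 ± 0.15). The count was 3 without EMD replicate 1 and 4 without DMSO replicate 2. In DMSO replicate 2 both genes stood lowest of the 3 vehicle arrays, Fdps at 10.68 against 11.39 and 11.36 and Fdft1 at 7.89 against 8.65 and 8.46, and in EMD replicate 1 both stood highest.

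Pyruvate stands between sugar and fat metabolism, and 4 of 12 genes of pyruvate dehydrogenase, its kinases, phosphatases and carriers rose while 1 fell. Pdk4, which switches the complex off, and Pdp2, a phosphatase that switches it on (1.53 ± 0.17, other probe set 1.56), both rose. The subunits of the mitochondrial pyruvate carrier parted. Mpc2 went from 10.46, 10.36 and 10.44 to 11.69, 11.98 and 11.77 (1.39 ± 0.09) and Mpc1 fell by 0.47 ± 0.09, from 11.22, 11.09 and 10.95 to 10.73, 10.53 and 10.58. In glycolysis, gluconeogenesis and glycogen, 4 of 33 rose and 6 fell (median 0.00). Pklr, the last step of glycolysis, stood at 8.28, 9.44 and 8.19 in DMSO and 5.82, 6.25 and 5.94 in EMD, a fall of 2.64 ± 0.26 (other probe set -2.41), 6.23-fold lower with EMD. Of gluconeogenesis, Fbp1, fructose bisphosphatase, rose by 1.86 ± 0.20, from 10.17, 10.07 and 9.41 to 11.70, 11.67 and 11.84, and Pc, pyruvate carboxylase, by 1.19 ± 0.22. Pck1, its rate-limiting carboxykinase, did not pass at 0.72 ± 0.40, nor did Pck2 at 0.26 ± 0.23 and Fbp2 at 0.80 ± 0.29. Gys2 went from 9.10, 9.32 and 8.47 to 10.66, 10.87 and 10.61. Not all genes of glucose release rose. Slc37a4, the transporter that feeds glucose 6-phosphatase, fell (-1.25 ± 0.28, a call lost in 2 alternatives), as did the glucose transporter Slc2a2 (-1.10 ± 0.15). Ugp2, which makes UDP-glucose and is not a gene of glucose release, fell as well (-1.12 ± 0.16).

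Among mitochondrial carriers and uncoupling proteins 5 of 17 rose and 1 fell (median 0.04). Ucp2 went from 6.12, 5.31 and 5.81 to 8.55, 8.78 and 8.87 (2.99 ± 0.24), and Slc25a42, which carries coenzyme A into the matrix, from 6.92, 7.16 and 6.93 to 9.42, 9.25 and 9.25 (2.30 ± 0.13). The adenine nucleotide exchanger Slc25a4 rose by 1.68 ± 0.31 with EMD arrays far apart, at 8.13, 8.80 and 9.61. The aspartate-glutamate carrier Slc25a12 fell by 0.77 ± 0.15. Of 71 genes of the respiratory chain and of ATP synthase 0 rose and 1 fell (median 0.00). In limma's test 11 of them had an unadjusted p under 0.05. The members not called lay between -0.25 and 0.34, and the fall of Atp5mk (-0.33 ± 0.09) was lost in 7 alternatives.

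In iron handling, 6 of 13 measured genes rose and 2 fell (median 0.55). Aco1, the cytosolic aconitase that as an iron regulatory protein binds mRNAs when iron is low, went from 9.13, 9.22 and 8.93 to 10.72, 10.83 and 11.08, a rise of 1.78 ± 0.12 (adjusted p = 3.7e-08). Its relative Ireb2 rose by 0.85 ± 0.14. The iron importer Slc11a2 went from 8.23, 8.11 and 7.80 to 9.06, 8.93 and 9.0, a rise of 0.95 ± 0.12 (other probe set 0.09). Id1, a target of the BMP signal that sets hepcidin, rose by 1.27 ± 0.16, from 6.22, 5.89 and 5.99 to 7.34, 7.44 and 7.13, and the transferrin receptor of hepatocytes Tfr2 by 0.55 ± 0.10. The fallers were Slc39a14, an importer of free iron and zinc (-0.86 ± 0.17, other probe set -0.37), and Hfe, which with Tfr2 senses iron (-0.51 ± 0.14). Of these 2, 1 call was left without DMSO replicate 1, without DMSO replicate 2, without EMD replicate 1 or without EMD replicate 3.

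The largest falls were smaller than the rises and belonged to genes of many kinds. After Pklr came Bcat1, a branched-chain amino acid transaminase, at 7.43, 7.20 and 8.16 in DMSO and 6.11, 5.40 and 5.62 in EMD (-1.89 ± 0.29, other probe set -0.84). Cytl1, a secreted cytokine-like protein, was at 6.09, 6.92 and 7.08 and at 4.95, 4.92 and 4.95 (-1.76 ± 0.25), and so ended under the array median. Pkdcc, a secreted tyrosine kinase, was at 10.66, 10.13 and 9.55 and at 8.62, 7.89 and 8.58 (-1.75 ± 0.33). In these genes the DMSO arrays had an SD of 0.50 to 0.56 (n = 3). Omd, a small leucine-rich protein of matrix, fell by 1.67 ± 0.34, the adhesion receptor Cxadr by 1.56 ± 0.19 (7.18, 6.82 and 6.62 against 5.43, 5.45 and 5.07) and Tcim, a small regulator of Wnt signalling, by 1.60 ± 0.19 (9.91, 10.02 and 9.27 against 8.07, 7.97 and 8.36). The calls of Cav1, Npy, Arhgap24, Gucy2c, Pdzrn3 and Abca8a, between -1.75 and -1.51, were each lost in at least 1 alternative. Abat fell by 1.64 ± 0.33 in the probe set read, but its other probe sets differed by only -0.18 and -0.06.

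Genes of blood proteins were read against the 4.33% of all genes that fell. Of 27 genes of coagulation and fibrinolysis 6 (22.2%) fell and 1 rose (median -0.42). Serpind1, heparin cofactor II, was at 9.0, 9.42 and 9.37 and at 7.71, 7.36 and 7.31 (-1.80 ± 0.26), and F5, factor V, at 9.62, 10.42 and 9.64 and at 7.86, 8.31 and 8.45 (-1.69 ± 0.29). Klkb1, plasma kallikrein, fell by 1.58 ± 0.33 and the plasmin inhibitor Serpinf2 by 1.10 ± 0.19. The gene of this list that rose was Serpine2, which is made by many cell types. It blocks proteases, as do Serpind1 and Serpinf2, which fell. Of 27 plasma carriers and apolipoproteins 2 fell and 0 rose (median -0.20, 23 of them below 0). Apoa5, which lowers plasma triglyceride, went from 10.63, 10.62 and 10.56 to 9.76, 9.40 and 9.16 (-1.16 ± 0.18), whereas the fall of Apoa1 (-0.38 ± 0.10) was lost in 7 alternatives. In complement 1 of 24 (4.17%) fell, C8a (-0.78 ± 0.21, lost in 6 alternatives), with a median of -0.36 and 20 members below 0. Of 42 acute phase, interleukin and NF-κB genes 4 fell and 1 rose (median -0.10), among them the interleukin-6 receptor Il6r (-0.99 ± 0.19) and the factor it works through, Stat3 (-0.58 ± 0.12, other probe set -0.53). The chemokine Cxcl12 rose by 2.35 ± 0.40 from a DMSO mean of 4.15, under the array median, but its other probe sets differed by 0.41 and 0.04. Of 23 interferon-inducible genes 1 (4.35%) fell, Isg20 (-0.85 ± 0.22, lost in 5 alternatives), and 0 rose (median -0.24).

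Enzymes that clear drugs and reactive compounds were mixed. Of 34 NRF2 targets, glutathione and antioxidant genes 6 fell and 1 rose (median -0.16). Of the Mu class of glutathione transferases, Gstm1 was at 13.29, 13.41 and 13.30 and at 12.65, 12.50 and 12.65 (-0.73 ± 0.09), Gstm2 at 11.69, 12.07 and 12.16 and at 10.66, 10.87 and 10.84 (-1.18 ± 0.19) and Gstm4 fell by 0.70 ± 0.08. Gstm3, also of the Mu class and among the 20 largest falls, fell by 1.53 ± 0.29. Gclc, the limiting subunit of glutathione synthesis, fell by 0.94 ± 0.20 (other probe set -0.80). Of 30 drug-metabolising cytochromes and partners 3 rose and 1 fell (median -0.24), with Cyp2j4 at 2.19 ± 0.32, the electron donor Por at 0.97 ± 0.16 (1.03) and Cyp2t1 at -1.0 ± 0.21. Of 16 aldehyde dehydrogenases 2 rose and 2 fell. Aldh1a1, which oxidises retinal, rose by 2.34 ± 0.19, from 8.21, 7.44 and 7.71 to 10.03, 10.15 and 10.20, and Aldh3a2, which oxidises fatty aldehydes, by 0.91 ± 0.17. Aldh2, which clears acetaldehyde, fell by 0.75 ± 0.12, and the fall of Aldh3b1 (-0.67 ± 0.17) was lost in 4 alternatives. Without DMSO replicate 3 the count of lower aldehyde dehydrogenases was 5. Of 19 conjugating enzymes 2 fell, Glyat and Nat8, and both calls were lost in 5 alternatives. In bile acid synthesis and transport 2 of 23 rose and 2 fell. Cyp8b1, which sets the share of cholic acid, rose by 1.94 ± 0.43, from 6.38, 6.35 and 6.94 to 8.37, 8.57 and 8.55, and the bile acid receptor Nr1h4 rose by 0.76 ± 0.15. Hsd3b7 fell by 0.73 ± 0.13 and Cyp27a1, of the alternative route, by 0.81 ± 0.21, a call lost in 4 alternatives. The lower calls of this list numbered 4 without DMSO replicate 3.

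Of 16 genes of the urea cycle and ammonia handling 2 fell and 0 rose (median -0.22). Ass1, which joins citrulline and aspartate, went from 12.37, 12.63 and 12.49 to 11.33, 11.22 and 11.36 (-1.20 ± 0.22), and Car5a, which feeds bicarbonate to the cycle, from 7.27, 7.77 and 6.47 to 5.85, 5.15 and 5.49 (-1.68 ± 0.27). Without DMSO replicate 3, the lowest array for Car5a in vehicle, 4 genes of the list fell. Of 46 genes of amino acid breakdown 5 rose and 7 fell (median -0.08). Ppm1k, which switches on the branched-chain keto acid dehydrogenase, rose by 2.04 ± 0.35 (other probe sets 0.03 and 0.61) and Hibch, of valine breakdown, by 1.22 ± 0.16. Ppm1k began under the array median, at a DMSO mean of 4.73. Hal, which starts histidine breakdown, fell by 1.06 ± 0.13, from 7.59, 7.52 and 7.70 to 6.69, 6.48 and 6.46.

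Of 47 genes of the actin cytoskeleton, TGFβ and matrix 6 fell and 1 rose (median -0.23, 35 of them below 0). Cdh2, N-cadherin, went from 11, 11.07 and 11.01 to 9.96, 9.71 and 9.46 (-1.32 ± 0.16, other probe sets -1.20 and -0.18), and vimentin, Vim, from 11.42, 11.61 and 11.38 to 10.58, 10.29 and 10.36 (-1.05 ± 0.17). The keratin of hepatocytes Krt8 fell by 0.62 ± 0.11. The count was 3 without DMSO replicate 1 and 3 without EMD replicate 2. Among cell junction genes 3 of 21 fell and 2 rose, with the desmosomal Dsp at -0.94 ± 0.16 (other probe set 0.00), F11r at -0.60 ± 0.12 and Tjp3 at 0.80 ± 0.13. The others called, Tjp1 (-0.57 ± 0.13, other probe set 0.05) and Pkp2 (0.37 ± 0.10), lost their calls in 3 and 7 alternatives. Of 22 liver transcription factors and nuclear receptors 4 rose and 2 fell. Creb3l3, a membrane-bound factor of the fasting liver, went from 9.46, 9.46 and 9.44 to 11.59, 11.35 and 11.38 (1.98 ± 0.13), and the oxysterol receptor Nr1h3 rose by 0.54 ± 0.10. Foxa2 fell by 0.65 ± 0.13 and Cebpd by 0.93 ± 0.21 (other probe sets -0.73 and -0.08), the latter a call lost in 1 alternative. The higher calls of this list numbered 2 without DMSO replicate 1 or any 1 EMD array. Of 27 hormones, growth factors and their receptors 3 fell and 1 rose. Avpr1a, the vasopressin receptor, kept its call in every alternative, at 6.73, 6.65 and 6.70 against 5.11, 4.65 and 4.91 (-1.80 ± 0.30). Its EMD mean of 4.89 lay under the array median, so the size of its fall is uncertain. The others were Npy, Gcgr and Inhbc, each called in part of the alternatives, and the fallers numbered 1 without DMSO replicate 2 or without EMD replicate 3. Of 16 clock genes 2 rose, Hlf and Nr1d2, and 1 fell, Nfil3, each of them lost in 4 or 5 alternatives.

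Lists of general cell functions held few calls, and over all genes too only 3.91% rose and 4.33% fell. Of 42 genes of the cell cycle and DNA replication 1 rose and 1 fell (median 0.07), Ccnd3, a cyclin, falling by 0.45 ± 0.09. Of 28 p53 targets and apoptosis genes 1 fell, Sesn1, a sestrin that is itself a stress target (-1.05 ± 0.14, other probe set -0.54). Of 37 genes of ER stress 0 rose and 1 fell, Xbp1, the factor spliced in the unfolded protein response, from 10.93, 11.03 and 10.91 to 10.24, 10.13 and 10.07 (-0.81 ± 0.09). Of 36 proteasome subunits 0 passed in either direction in limma's test, with 6 at an unadjusted p under 0.05 (median 0.04). Of 48 cytosolic ribosomal proteins 1 rose, Rpl26l1 (0.54 ± 0.10), with a median of 0.01. These few calls were single genes of their lists.

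**Figure D4:**
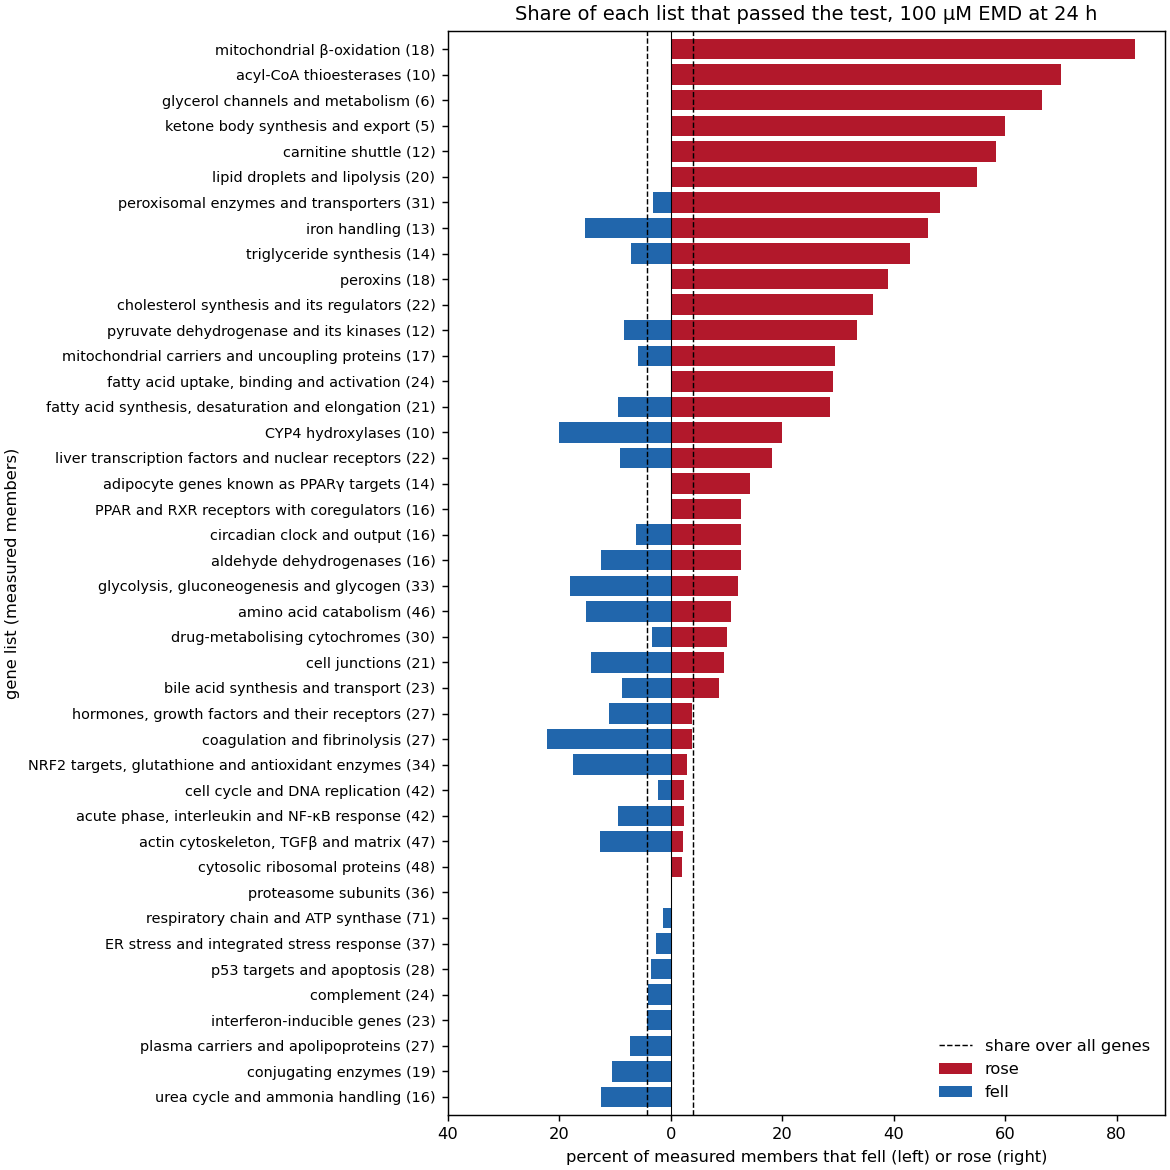
Share of the measured members of each gene list that fell (left) or rose (right) at 24 h with 100 µM EMD, in percent on the x axis, with the number measured in brackets. Dashed lines mark the share over all 14217 genes, 3.91% higher and 4.33% lower, and mitochondrial β-oxidation reaches 83.3% higher while coagulation and fibrinolysis reaches 22.2% lower.

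The labelled cell type was checked against marker genes. Of 12 hepatocyte markers 11 were measured and all stood above the array median, Alb (albumin) at a mean of 14.65 in DMSO and 14.63 in EMD. The mean level of the list was lower with EMD, at 12.35 to 12.43 over the arrays against 12.69 to 12.80, and 2 of its genes fell (Apoa1 and Ass1). Of 15 macrophage markers 13 were measured, 6 of them under the median, and the mean was 5.37 to 5.66 with EMD against 5.50 to 6.14. Here Lyz2, lysozyme, fell by 1.18 ± 0.22 from a mean of 10.71. Stellate cell and fibroblast (14 measured, 4.17 to 4.27 against 4.20 to 4.29), endothelial (11, 3.85 to 3.96 against 3.88 to 3.94), cholangiocyte (6, 4.39 to 4.49 against 4.33 to 4.52) and lymphocyte and neutrophil markers (7, 3.85 to 3.88 against 3.82 to 3.88) had 0 calls in limma's test, with 2, 2, 1 and 1 in turn at an unadjusted p under 0.05, and 12, 10, 5 and 7 in the same order were under the median. The part of macrophages in the falls of the interleukin genes, and of the lower hepatocyte list in the falls of blood protein genes, was not tested, and in RNA of a whole culture fewer cells of a type and less RNA per cell cannot be told apart. RNA quality was read from the 3′ minus 5′ difference of the arrays' control probe sets, which was 1.29 ± 0.0889 with EMD and 1.31 ± 0.0393 (SD, n = 3) with DMSO for β-actin, 0.215 ± 0.0368 against 0.289 ± 0.0127 for Gapdh, and 1.51 ± 0.103 against 1.4 ± 0.121 for hexokinase.

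The same genes were set against the lower dose. Between 100 and 30 µM at 24 h, 0 of 31042 probe sets (0.0%) passed in limma's test, with 1421 at an unadjusted p under 0.05 and a smallest adjusted p of 0.292. Arrays with the same replicate number deviated together in these doses, and with that number as a block 3 probe sets passed, all lower at 100 µM, namely Gstm2 (-0.71 ± 0.09), Bdh1, a ketone body dehydrogenase (-0.87 ± 0.12), and Dnase1l3, a secreted nuclease (-1.41 ± 0.20). Against DMSO, Dnase1l3 had a change of 3.56 at 30 µM and of 2.15 at 100 µM. Bdh1 passed here in a probe set other than the one read for that gene. Fitted on the 6 arrays of the doses alone with the block, 262 passed, 203 of them lower at 100 µM. So the count depends on the block, and the direction leaned to lower values at the higher dose. The 1172 genes that had risen or fallen at 100 µM had a median difference of 0.123 in size between the doses, and for 1126 of them (96.1%) the 95% interval of that difference lay within 2-fold in both directions. For Acot1 the interval was -0.22 to 0.17, for Pdk4 -0.19 to 0.61, for Fabp1 -0.60 to 0.22 and for Pklr -1.02 to 0.08. The changes against DMSO at 30 and at 100 µM, which share the DMSO arrays, were 8.70 and 8.67 for Acot1, 7.34 and 7.15 for Ehhadh and 1.79 and 1.78 for Aco1. They were -0.47 and -1.18 for Gstm2 and -0.42 and -0.73 for Gstm1, -0.68 and -1.67 for Omd and 2.75 and 3.45 for Elovl6. Intervals of the dose difference that left out 0, with no adjustment, included those of Gstm2 (-1.11 to -0.31), Gstm3 (-1.49 to -0.26) and Elovl6 (0.32 to 1.07), and their adjusted p were 0.88, 0.94 and 0.85.

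The response at 100 µM was then compared with that at 72 h by an interaction term. It differed in 215 probe sets, 76 of them (0.245%) with a higher and 139 (0.448%) with a lower change at 72 h, and 67 of the 215 had been called at 24 h. The count was 57 without DMSO replicate 2 of 72 h, 64 to 141 without EMD replicate 1, 2 or 3 or DMSO replicate 2 or 3 of 24 h or EMD replicate 2 or 3 of 72 h, and 800 without EMD replicate 1 of 72 h. Among the fatty acid genes at 24 h, Cyp4a3 (4.57 ± 0.22 at 24 h) was at 1.75 ± 0.22 at 72 h, and Fabp3 (2.16 ± 0.31) was at 5.43 ± 0.31. For Cyp4a3 the mean level with EMD was 13.25 at 24 h and 13.23 at 72 h, while that with DMSO was 8.68 and 11.48. So the smaller change of Cyp4a3 at 72 h came with a higher vehicle level. For Fabp3 the means were 7.18 and 10.18 with EMD and 5.02 and 4.75 with DMSO. Scd2, a desaturase best known from brain, was at 0.91 ± 0.40 at 24 h, where it did not pass (adjusted p = 0.25), and at 5.61 ± 0.40 at 72 h. The other 3 probe sets of Scd2 were at 0.21, 0.10 and -0.06 at 24 h, and with the mean of its probe sets the difference between the times was 1.87 in place of 4.69. Aqp3, which like Aqp7 passes glycerol, was at 1.13 ± 0.41 (adjusted p = 0.14) and at 4.66 ± 0.41. In the other direction Cyp2c11, the male-specific cytochrome of rat liver, differed by -0.70 ± 0.35 at 24 h (adjusted p = 0.34) and by -3.48 ± 0.35 at 72 h, and Hrg, a histidine-rich plasma protein, by -1.16 ± 0.37 (adjusted p = 0.08) and -4.21 ± 0.37. Scd2, Aqp3, Cyp2c11 and Hrg each passed at 24 h in at least 1 alternative. Acot1, by contrast, stood at 8.67 and 8.58 at the times and Cpt1b at 4.88 and 4.86.

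**Figure D5:**
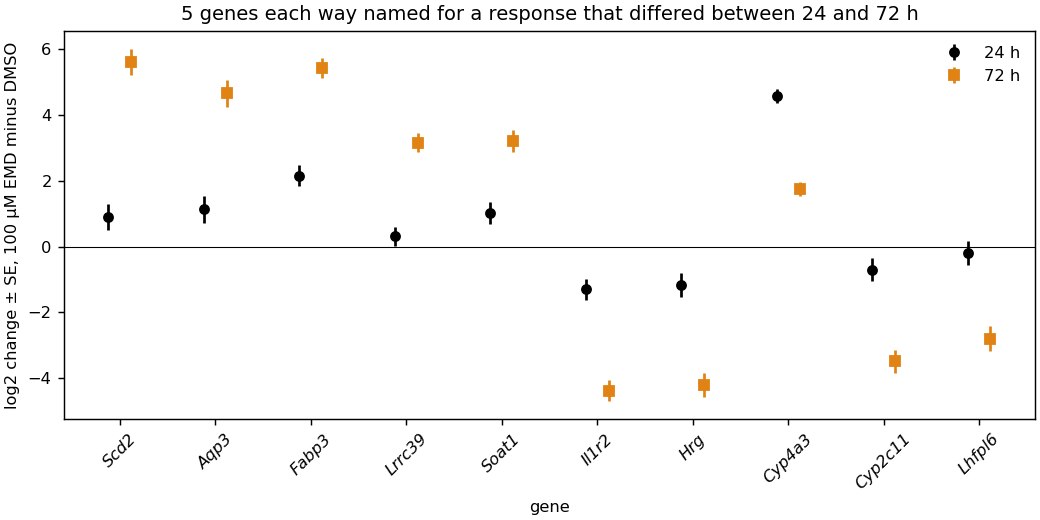
log2 change with 100 µM EMD against DMSO (y axis, with bars of 1 SE and 3 arrays in each group) at 24 h (black circles) and 72 h (orange squares) for 5 genes in each direction, those with the largest difference in response between the times among genes that passed and showed no overlap between the groups at 24 h or at 72 h (x axis). Cyp4a3 is at 4.57 and 1.75, and Scd2 at 0.91 and 5.61. Each change is taken from the DMSO arrays of the same time. The mean DMSO level of Cyp4a3 was 8.68 at 24 h and 11.48 at 72 h.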

How the data were processed

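Affymetrix rat arrays were hybridised with RNA of hepatocyte cultures, and the authors deposited log2 values, computed with RMA in Expression Console (version not given in the sources used here). RMA subtracts background and equalises the arrays' distributions, which removes any shift that most genes share. Groups and replicate numbers came from the array titles. The study's methods state that every treatment was given to cells of each animal. The titles call the EMD arrays biological replicates and number the vehicle arrays in the same way. They do not tie a replicate number to an animal. The main test was run without pairing, and its p-values measure only how far these arrays spread.

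Of the 31099 probe sets 57 controls were left out. The platform annotation gave 1 symbol to 20826, several to 436 and none to 9780, and gene IDs matched 20758 to the GRCr8 table. Where a gene had several probe sets, the one of highest mean over 18 arrays was used. In limma 3.58.1 (R 4.3.3) the 6 groups were put in 1 fit of all arrays, tests were two-sided, and p-values were adjusted by Benjamini-Hochberg over 31042 probe sets with a threshold of 0.05. Intervals are at 95%. Contrasts were EMD minus DMSO at 24 h, 100 minus 30 µM at 24 h, and the change at 72 h minus that at 24 h. The fit was tested on simulated data.

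The genes and the 43 lists, with 1022 measured genes, were chosen with earlier results of these data known. Named were the 20 largest rises and falls among probe sets that passed, had 1 symbol and showed groups without overlap, the study's PPARα genes and the PPAR genes, up to 5 called members of a list, and up to 5 genes each way for time. Genes beyond this rule, such as Hao2 and those named for motifs or for the dose block, were chosen after their values were seen. Promoters are RefSeq's. The alternatives were a replicate block, the arrays compared alone without and with the block, cyclic loess, equal array medians, an intensity trend with robust moderation, array weights, no dim probe sets, the mean of a gene's probe sets, and leaving out each array. Same-numbered arrays of 30 and 100 µM deviated together from their group means (correlations of 0.433 to 0.63), so the block is given beside that result, while those of DMSO and 100 µM did so less evenly (0.03 to 0.54). Within a group, 2 arrays correlated at 0.9903 to 0.9957, and no array was a copy of another.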

Additional observations from a re-analysis of the deposited data

Results flagged for a closer look

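The response to 100 µM EMD differed between 72 h and 24 h in 215 probe sets by the interaction term. Among genes with 1 symbol that also passed, with groups without overlap, at 24 h or at 72 h, the difference (change at 72 h minus change at 24 h, log2) was largest for Scd2 (4.69), Aqp3 (3.53), Fabp3 (3.27), Lrrc39 (2.84) and Soat1 (2.19), the last an enzyme that makes cholesterol esters. In the other direction it was largest for the decoy interleukin-1 receptor Il1r2 (-3.08), Hrg (-3.05), Cyp4a3 (-2.82), Cyp2c11 (-2.78) and Lhfpl6 (-2.59). The mean DMSO level at 24 h and 72 h was 8.68 and 11.48 for Cyp4a3 and 4.12 and 8.71 for Lhfpl6. With EMD it was 13.25 and 13.23 for Cyp4a3 and 3.93 and 5.92 for Lhfpl6. For Hrg it was 12.72 and 12.80 with DMSO and 11.55 and 8.58 with EMD. Scd2, Lrrc39, Soat1 and Lhfpl6 stood under the array median in all 24 h arrays compared here, and their changes at 24 h, from -0.19 ± 0.37 for Lhfpl6 to 1.03 ± 0.33 for Soat1, did not pass. Other probe sets changed at 24 h by 0.21, 0.10 and -0.06 for Scd2, by -0.07 for Lrrc39, by -0.01 for Soat1 and by 0.05 for Lhfpl6. The difference between the times no longer passed in 12 alternatives for Soat1, in 10 for Lhfpl6, in 4 for Cyp2c11 and in 1 for Hrg, and with the mean of the probe sets it was 1.87 for Scd2 and -1.30 for Lhfpl6.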

How the results depend on the processing

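With the replicate block the lower calls numbered 1377 in place of 917, and all calls 2645, of which 1865 were shared with the 1867. The block fit of 100 against 30 µM gave 3 calls, the fit of those arrays alone with the block 262, and array weights 9, in place of 0. The calls that differed between the times, 215, became 534 with the block, 76 in the fit of the arrays compared and 1090 with array weights. Leaving out 1 array gave 1207 to 1605 calls at 24 h, 663 to 884 higher, 544 to 773 lower and 412 to 497 of at least 2-fold, 0 to 2 between the doses and 57 to 800 between the times. Of 2980 values recomputed for 185 named genes, 2765 kept their direction and side of the threshold, 202 no longer passed, 13 newly passed and 0 reversed, and 46 genes lost a call somewhere. Some of these were counted in a list above without being described. The calls of Cyp2c22, Dld, Vcl, Fads1 and Cebpb were each lost in 6 alternatives, that of Cdk2 in 5 and those of Gpam and Elovl5 in 4. Of 1290 list counts 1089 stayed within 1.5 times. With 1 array left out, 14 to 15 of the mitochondrial β-oxidation and 13 to 15 of the peroxisomal genes rose. The cause of these differences was not tested. Signal near background limits the size of changes of dim genes.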

Other observations

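Of the 556 genes that rose 146 were in a gene list, as were 71 of the 616 that fell, and the genes below, outside the lists for the most part, were chosen after their values were seen. Several make, carry or split coenzyme A, the group to which fatty acids are bound. Pank1, the kinase that starts its synthesis from pantothenate, was at 8.32, 8.32 and 8.12 in DMSO and at 11.46, 11.41 and 11.47 in EMD, a rise of 3.19 ± 0.12. Pank2 rose by 0.90 ± 0.15 (other probe set 0.91), and Ppcs, of the next step, went from 9.08, 9.41 and 9.62 to 10.97, 11.45 and 11.13, a rise of 1.81 ± 0.15. With Vnn1, Slc25a42 and Nudt7 described above, genes of the beginning, the transport and the breakdown of coenzyme A rose at once. The later steps of synthesis did not pass, with Ppcdc at 0.02 ± 0.11, Coasy at -0.11 ± 0.12 and Dcakd at -0.52 ± 0.18, nor did Pank3 (0.08 ± 0.12) and Pank4 (0.07 ± 0.09).

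Genes that make and remodel phosphatidylcholine, the main lipid of membranes and of lipoprotein surfaces, also rose in part. Lpcat3, which puts polyunsaturated chains into it, went from 9.80, 9.66 and 9.63 to 11.81, 11.83 and 11.87, a rise of 2.14 ± 0.09 (other probe set 2.10). The choline kinase Chkb rose by 1.73 ± 0.11, the transfer protein Pctp by 2.03 ± 0.19 and the final enzyme Chpt1 by 0.95 ± 0.13 (1.07). Pcyt1a, of the limiting step, was at 0.02 ± 0.11, the other choline kinase Chka at -0.34 ± 0.19 and Pemt, which makes the lipid by methylation, at -0.06 ± 0.22, and none of these passed.

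Among falls outside the lists, Nt5e, which makes adenosine outside the cell, went from 8.67, 8.80 and 8.52 to 7.53, 6.87 and 7.34 (-1.42 ± 0.16), and the adenosine receptor Adora2b fell by 1.13 ± 0.15. The ectoenzymes Enpp1 and Enpp3, which split nucleotides at the cell surface, fell by 0.64 ± 0.12 and 0.83 ± 0.14. Selenop, the selenium carrier of plasma, was at 12.84, 12.62 and 12.09 and at 11.43, 10.94 and 11.23 (-1.32 ± 0.25, other probe set -0.42).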
